A study of Rattus norvegicus with 4 samples.

Results

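Footpad skin from a rat model of radiation dermatitis held 10 groups of expressed sequences that carry a UniGene identifier but no gene name or gene number and that were at their highest on day 9. UniGene was a public resource that grouped expressed sequence reads likely to come from 1 gene, and many of its groups were never tied to a named gene. The 10 rows were chosen by their level: at least 20 counts per 1000000 tags (CPM) on day 9, and at least 2 times the highest level of days 0, 3 and 6. They are 10 of 7486 UniGene-only rows and of 18957 rows in all. The choice used all 4 libraries, so the day 9 excess of these rows is a description and not a finding. Of 463 UniGene-only rows with at least 20 CPM on day 9, 12 met both thresholds, which is 2.59% of them, and 2 described as stefin-like were left out. The same thresholds were met by 67 of 3198 rows with a gene number, or 2.1%.

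The samples were hindlimb footpad skin of Sprague Dawley rats, with 1 library for each of days 0, 3, 6 and 9. Electron irradiation of 10 Gy was given 4 times, on days 1, 2, 4 and 5 by the protocol, with a 9 MeV beam at 500 cGy/min, so day 0 skin had not been irradiated and day 9 skin came 4 days after the last dose. By that protocol day 3 fell between the doses of days 2 and 4, and day 6 came after the dose of day 5. The doses received and the time since the last dose therefore both vary over the 4 libraries. The labels are not uniform: day 1 is given as the collection day in the description of the day 0 sample, and a single irradiation day in each later description. Those irradiation days are 2, 4 and 5 for the day 3, day 6 and day 9 samples. The groups follow the titles. No number of animals, sex or time of day was given in the labels. With 1 library for each day there was no spread between animals, no test across animals was made, and every interval below covers counting error only.

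Irradiated epidermis loses dividing keratinocytes, and the surviving cells take on the program of injured skin, in which stress keratins, cornified envelope precursors, protease inhibitors and chemotactic proteins are made. Clade B serpins are inhibitors of proteases that act largely inside cells, and several are made by squamous epithelium. The Duffy antigen is an atypical chemokine receptor of red blood cells and venular endothelium that binds chemokines without passing on a classical signal.

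The libraries held 3360368 to 3592019 sequenced tags, of which 3247997 to 3482882 were seen at least 2 times, and 56.9 to 60.6% of these stood in a row of the gene tables. Epidermal markers were present in every library: Krt1, a keratin of suprabasal epidermis, had 21013, 23380, 38510 and 29506 counts on days 0, 3, 6 and 9. The day 6 library stood apart in that all 11 skeletal muscle markers found were at 0, with summed levels of 1427, 3216, 0 and 2715 CPM over the 4 days. Each row below therefore has its day 9 value set against days 0 and 3 as well as day 6. In bulk skin, fewer cells of a type and less RNA per cell cannot be told apart. The labels name no batch.

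The tag sequences are shown because they are the only identity most of these rows have. Each is 21 bases long and begins with CATG, in capitals, the site at which the transcript was cut. Sites are numbered from the 3′ end of the UniGene sequence, as the authors' tables give them. The most abundant tag of each row, from the highest to the lowest day 9 level, was as follows.
Rn#S14136697, site 5: CATGagcacagattctacatc
Rn#S29273007, site 1: CATGaaaagtaaataaataaa
Rn#S56049098, site 2: CATGcgaacaaaaggaatttt
Rn#S56131888, site 1: CATGtcaacttaaattaaagt
Rn#S14203039, site 1: CATGtgatgttaactattatt
Rn#S55424365, site 5: CATGcatttgtttgctaaagc
Rn#S14068622, site 1: CATGttctatgatatttgtat
Rn#S29285354, site 1: CATGaaattaataaaagttac
Rn#S14142587, site 4: CATGatgcaccttgtcttctc
Rn#S47532250, site 1: CATGcagcttgacaacacaaa

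In these 10 tags, 52.9 to 94.1% of the 17 bases after CATG were A or T, with a median of 76.5%, against a median of 58.8% over the most abundant tags of the 463 UniGene-only rows of that day 9 level. The tag of Rn#S29273007 had the highest share, with 16 A or T bases of 17. Of the 10 tags, 6 came from site 1, the CATG nearest the 3′ end, where this assay is built to read, while 71.9% of the 463 rows had their most abundant tag there. None of the 10 was 1 base away from a more abundant tag in the day 9 library, which was true of 16, or 3.46%, of the 463 rows. Among all tags 1 base from one of the 10, a single tag reached 5 copies in any library. It differs from that of Rn#S29273007 by G9A, counted from the C of CATG, belongs to the same row, and had 2, 2, 2 and 8 copies on days 0, 3, 6 and 9. No other form of any of these tags that differs by 1 base after CATG was therefore abundant in the libraries where the row was low. The comparison covered only the most abundant tag of each row, and a change inside CATG could not be seen by it.

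**Figure D1:**
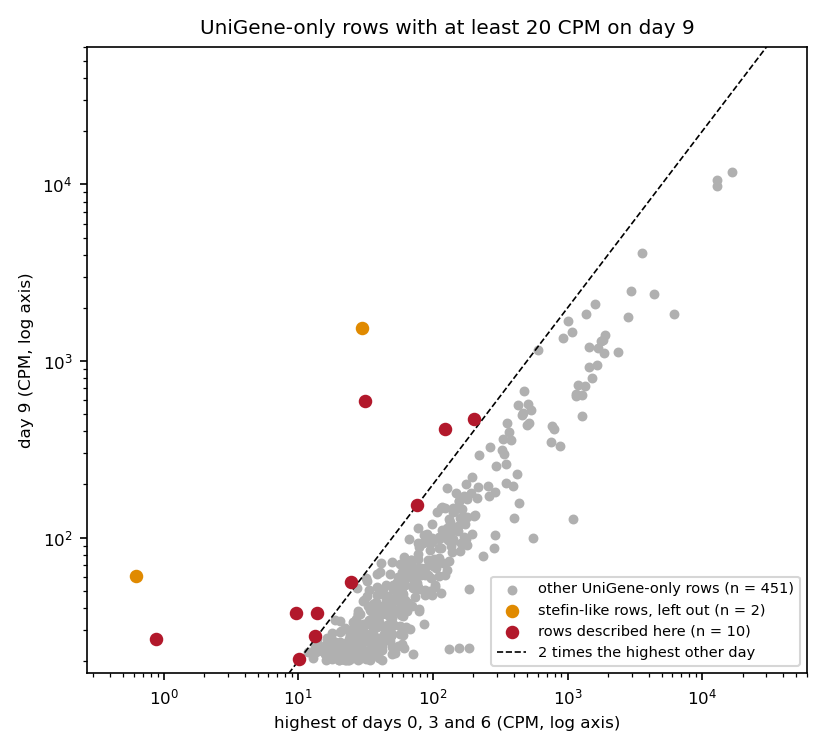
Level on day 9 against the highest level of days 0, 3 and 6 for each UniGene-only row with at least 20 CPM on day 9, both in CPM on log axes. The 10 rows described here lie on or above the dashed line of 2 times the highest other day, and Rn#S14136697 and Rn#S14142587 lie farthest from it, at 18.8 and 30.7 times.

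The day 9 excess differed widely among the rows. Rn#S47532250 and Rn#S56131888 were just inside the threshold of 2, each at 2.01 times the highest other day. Just outside it were Rn#S56136808, at 1.91 times with 1148 CPM on day 9, and Rn#S29278463, at 1.91 times with 52.0 CPM. By level, the lowest member had 20.4 CPM on day 9 and the next 26.8 CPM, while Rn#S13850726 and Rn#S14160664 stayed outside with 19.5 and 15.3 CPM. Together the 10 rows made up 222, 336, 499 and 1828 CPM on days 0, 3, 6 and 9, and 218, 327, 468 and 1237 CPM without Rn#S14136697.

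A size rule was used to describe ratios between 2 libraries. A row passed when its scaled counts differed by 2-fold or more, when the library with more tags held 50 counts or more, and when the exact 95% interval of counting error left out 1. All 10 rows were higher on day 9 than on day 0 by this rule, beside 10.7% of the 5345 rows and 14.6% of the 745 UniGene-only rows with enough counts. All 10 were higher than on day 3, beside 6.41% of 5165 rows and 9.18% of 708 UniGene-only rows. Against day 6, 8 of the 10 were higher, beside 10.0% of 5127 rows and 10.2% of 706 UniGene-only rows. These counts follow from how the rows were chosen. The median log2 ratios of the 10 rows were 2.11 for day 9 over day 0, 2.21 for day 9 over day 3 and 1.58 for day 9 over day 6, and those of all rows were 0.00, -0.01 and 0.00.

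The rows with a recognisable protein match come first. Rn#S55424365 was matched by the authors to a predicted serpin B4-like protein of the rat (E value 5.43e-111) and carries the annotation of an endopeptidase inhibitor. It was listed at 0 counts on days 0 and 3 and had 33 and 125 counts on days 6 and 9, or 0, 0, 9.58 and 37.6 CPM. The row thus appears in the 2 later libraries, with a day 9 level 3.82-fold (2.61 to 5.85) that of day 6 and at least 43.7-fold that of day 0 and 44.0-fold that of day 3, taking 3 counts as the floor for a library at 0. Tags seen once were left out of the tables, and the full tag lists held 3 single copies of its tags on day 0 and 3 on day 3.

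The excess of Rn#S55424365 on day 9 over day 6 rested on 1 tag. Its site 5 tag had 0, 1, 25 and 112 copies on days 0, 3, 6 and 9, and made up 89.6% of the row on day 9. The tag at site 1, CATGccgcagaagaaagtgaa, had 1, 1, 8 and 9 copies, and its scaled level on day 9 was 1.17 times that of day 6. Both tags were more frequent on days 6 and 9 than on days 0 and 3, and they differ in the last step.

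Clade B serpins with a gene number, chosen for comparison after the values were seen, did not share one course. Of 14 such rows, 7 were highest on day 9, and 2 met the thresholds that define the rows described here, Serpinb2 and Serpinb3. Among rows with a gene number and at least 20 CPM on day 9, 2.1% met them. No such share was counted for rows that were merely highest on day 9. Of the 7, Serpinb12 had 733 and 738 CPM on days 6 and 9, with a scaled ratio of day 9 to day 6 of 0.99 (0.94 to 1.05). Serpinb13 had 43 and 47 counts on those days. Serpinb3, which in humans encodes squamous cell carcinoma antigen 1, had 29.9, 27.4, 83.0 and 171 CPM on days 0, 3, 6 and 9. Like Rn#S55424365, it was higher on day 6 than on days 0 and 3, and higher again on day 9. Serpinb2, the plasminogen activator inhibitor of squamous epithelium and macrophages, had 62.6, 34.2, 25.3 and 171 CPM and was lowest on day 6. Serpinb11 was outside the thresholds but higher at each step, with 17.5, 26.2, 36.6 and 61.3 CPM. Serpinb5, known as maspin, had 497, 250.0, 418 and 349 CPM and was not highest on day 9. Clade B genes are closely related paralogs, so tags of 1 gene may be counted under another, though no tag of Rn#S55424365 was listed under a further row.

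Rn#S56131888 was matched to a predicted Duffy antigen/chemokine receptor-like protein (E value 1.73e-168), which its description marks as a low-quality protein. The row carries the terms membrane, chemokine binding, signal transducer activity, defense response and signal transduction. It had 189, 246, 261 and 507 counts on days 0, 3, 6 and 9, which is 54.3, 75.7, 75.7 and 152 CPM. The levels of days 3 and 6 were equal, day 0 was the lowest and day 9 stood above all of them. The ratio of day 9 to day 0 was 2.81-fold (2.38 to 3.35), that to day 3 was 2.17-fold (1.86 to 2.54), and that to day 6 was 1.98-fold (1.70 to 2.31), just short of the size rule with this scaling. A single tag at site 1 held 98.4% of the row on day 9.

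Markers of the cells known to carry the Duffy antigen did not share one course. Endothelial markers summed to 41.6, 51.1, 75.2 and 50.5 CPM on days 0, 3, 6 and 9. Of the 6, only Vwf had enough counts for the size rule between days 0 and 9, with a ratio of 1.09 (0.78 to 1.54). The other genes were too low to be called, and Cdh5, a defining endothelial cadherin, was at 0 on days 0, 6 and 9. Red blood cell markers summed to 10.1, 471, 30.2 and 180 CPM, almost all from the beta-globin gene Hbb, and were highest on day 3. The part of either cell type in the level of Rn#S56131888 was not tested.

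Rn#S14142587 was matched to rCG40964, a rat protein predicted from genome sequence alone (E value 3.43e-51), and carries the term response to estrogen stimulus. Counts were 0, 0, 3 and 89 on days 0, 3, 6 and 9, or 0, 0, 0.87 and 26.8 CPM. Nearly all of this row was therefore seen in the day 9 library, which was 26.1-fold (10.0 to 149, log2 4.70) above day 6 and at least 31.1-fold above day 0 and 31.3-fold above day 3. Its counts came from 5 tags at 5 sites. On day 9 the tag at site 4 had 38 copies, the tag at site 1, CATGgctctgggcacttttgg, had 28, and that at site 5, CATGagaggttttgaagggaa, had 13. None of the 3 had more than 3 copies in any other library. With a prior count of 5 the log2 ratio of day 9 to day 6 was 3.58, and through the most abundant tag alone it was 3.49, below the count minimum of the size rule.

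A pair of rows had matches to conceptual proteins of other species. Rn#S56049098 was matched to the human hCG2030753 (E value 2.38e-06), a protein of unknown role. It had 341, 335, 425 and 1365 counts on days 0, 3, 6 and 9, which is 97.9, 103, 123 and 410.3 CPM. Days 0 and 3 could not be told apart by counting error, with a ratio of 0.98 (0.84 to 1.14), and day 6 was 1.28-fold (1.11 to 1.48) above day 0. Day 9 stood clear of all 3 libraries, 4.20-fold (3.73 to 4.75) above day 0, 4.29-fold (3.81 to 4.86) above day 3 and 3.27-fold (2.93 to 3.66) above day 6.

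The excess of Rn#S56049098 was seen at each of its 3 sites. The site 2 tag had 238, 234, 325 and 932 copies on days 0, 3, 6 and 9. The site 3 tag, CATGagaagttactatgaatc, had 71, 53, 64 and 272 copies, and the site 1 tag, CATGgttttgtttttctcttt, had 30, 48, 36 and 154. Scaled to library totals, the day 9 levels were 2.97, 4.01 and 3.13 times the highest other day.

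Rn#S29273007 was matched to the mouse mCG1045525 (E value 1.47e-12), a conceptual protein of unknown role. It had 81, 330, 701 and 1559 counts on days 0, 3, 6 and 9, or 23.3, 102, 203 and 469 CPM. Each library was about 2 or more times the one before it, and the row was the only one of the 10 past the size rule at all 3 steps. Day 3 was 4.03-fold (3.17 to 5.23) above day 0, day 6 was 2.20-fold (1.93 to 2.51) above day 3, and day 9 was 2.27-fold (2.07 to 2.48) above day 6. Over the whole course day 9 was 20.1-fold (16.2 to 25.6) above day 0 and 4.98-fold (4.42 to 5.63) above day 3. A single A- and T-rich tag at site 1 made up 99.4% of the row on day 9, so its course could not be compared between sites.

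The remaining 5 rows had no protein match and no functional annotation. Among the 463 UniGene-only rows of this level 52.3% had no match, against 50% of the 10. Rn#S14136697 had the highest day 9 level of the 10. Its counts were 12, 28, 108 and 1964 on days 0, 3, 6 and 9, which is 3.45, 8.62, 31.3 and 590.4 CPM. The day 9 library stood far above the others, 165-fold (98.1 to 333) above day 0, 72.7-fold (51.0 to 112) above day 3 and 18.5-fold (15.3 to 22.7) above day 6. Day 6 was itself 8.94-fold (5.09 to 18.5) above day 0 and 3.94-fold (2.61 to 6.28) above day 3, both past the size rule. The day 3 ratio to day 0 was 2.27 (1.14 to 5.01), from too few counts for the rule.

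Rn#S14136697 was counted through 10 tags at 5 sites, of which 3 were 1 base from the most abundant tag. The site 5 tag had 9, 21, 80 and 1637 copies on days 0, 3, 6 and 9 and made up 83.4% of the row on day 9, while the site 1 tag made up 1.63%. The site 3 tag, CATGactatcaagggatgagc, had 3, 7, 25 and 230 copies. The site 4 tag, CATGaagcaccaagtgtgtgt, had 0, 0, 1 and 46, and the site 1 tag, CATGgcctgtagctcttcctg, had 0, 0, 3 and 32. All 4 tags were highest on day 9, and the sites differed in size, at 21.2 times the highest other day for site 5 and 9.53 times for site 3. Over the 10 rows, 19 tags had at least 10 copies over the 4 libraries and were not 1 base from the most abundant tag of their row. All 19 were highest on day 9, and 17 were at least 2 times the highest other day, the exceptions being the site 1 tags of Rn#S55424365 and Rn#S47532250. These tags make up the rows that were chosen for their day 9 level, so both counts largely follow from the choice. The tags of other rows were not counted in the same way.

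**Figure D2:**
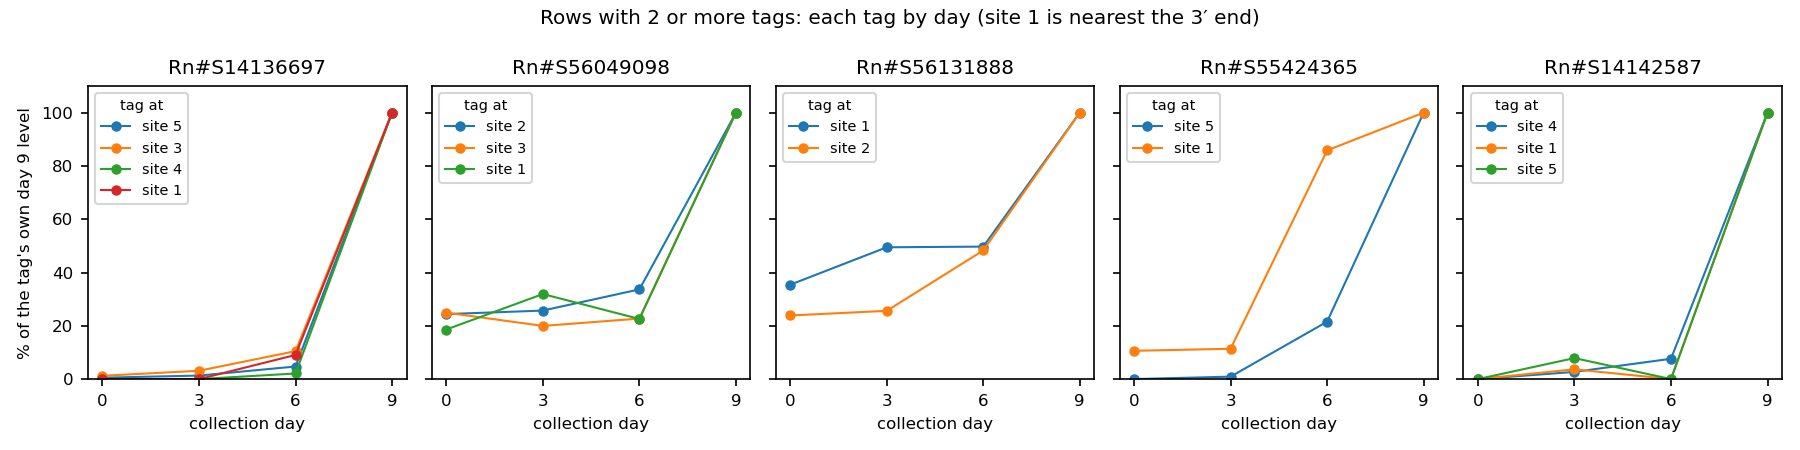
Level of each tag as a percent of its own day 9 level, by collection day, for the 5 rows with at least 2 tags of 10 or more copies over the 4 libraries; colours mark the site of the tag, with site 1 nearest the 3′ end. Tags of Rn#S14136697, Rn#S56049098 and Rn#S14142587 stayed well below their day 9 level on days 0, 3 and 6, while the site 1 tag of Rn#S55424365 had 8 copies on day 6 and 9 on day 9.

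Rn#S14203039 had 44, 80, 67 and 187 counts on days 0, 3, 6 and 9, or 12.6, 24.6, 19.4 and 56.2 CPM. Day 9 was 4.42-fold (3.20 to 6.35) above day 0, 2.46-fold (1.89 to 3.25) above day 3 and 2.83-fold (2.14 to 3.82) above day 6. The level of day 3 was 1.80-fold (1.24 to 2.68) that of day 0, and days 3 and 6 could not be told apart by counting error.

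Rn#S14068622 had 48, 18, 40 and 124 counts on days 0, 3, 6 and 9, or 13.8, 5.54, 11.6 and 37.3 CPM, all from 1 tag. It was the only row of the 10 whose highest other library was day 0, and its lowest was day 3. The ratio of day 3 to day 0 was 0.38 (0.20 to 0.65), below the count minimum of the size rule. Day 9 was 2.69-fold (1.93 to 3.87) above day 0, 7.10-fold (4.41 to 12.7) above day 3 and 3.13-fold (2.20 to 4.63) above day 6.

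Rn#S29285354 had 26, 29, 46 and 92 counts on days 0, 3, 6 and 9, or 7.47, 8.93, 13.4 and 27.7 CPM, also from 1 tag. Day 9 was 3.66-fold (2.38 to 5.98) above day 0, 3.31-fold (2.18 to 5.27) above day 3 and 2.03-fold (1.42 to 2.97) above day 6. Rn#S47532250, the row with the lowest day 9 level, had 31, 24, 35 and 68 counts, or 8.90, 7.39, 10.2 and 20.4 CPM. Its first 3 libraries could not be told apart by counting error, and day 9 was 2.28-fold (1.48 to 3.64) above day 0 and 2.95-fold (1.85 to 4.98) above day 3. It was 1.97-fold (1.30 to 3.07) above day 6, short of the size rule.

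**Figure D3:**
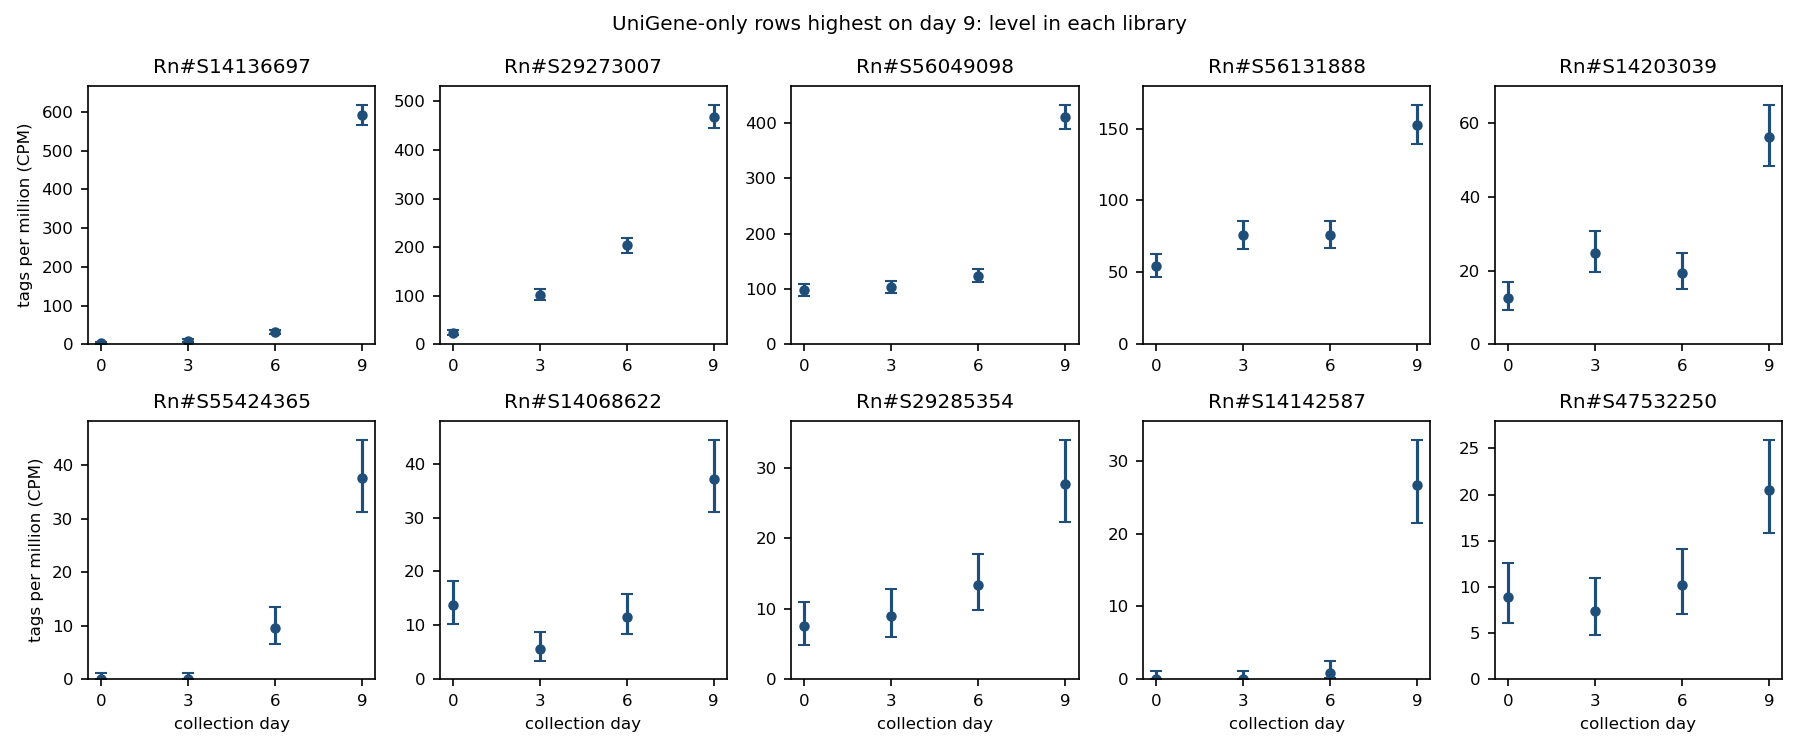
Level of each of the 10 rows in CPM by collection day, 1 library for each day, with exact 95% Poisson intervals as bars and a separate vertical axis in each panel. Rn#S29273007 had 23.3, 102, 203 and 469 CPM over the 4 days, while Rn#S56049098 had 97.9, 103 and 123 CPM before its 410.3 CPM on day 9.

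The earlier libraries entered the choice of rows only as an upper limit, so their order among themselves was less fixed by it. In CPM, 4 of the 10 rows were higher at each step from day 0 through day 9. Of these, Rn#S56049098 was at 0.98-fold (0.84 to 1.14) on day 3 over day 0 by the scaled ratio, which uses gene counts as the total. Rn#S29285354 was at 1.11-fold (0.63 to 1.96) by the same ratio. In CPM, 9 rows were higher on day 6 than on day 0. Not every such step was beyond counting error, and Rn#S14142587 had only 3 counts on day 6. Neither order was counted over all rows, so no share stands beside these counts. By the size rule 2 rows, Rn#S14136697 and Rn#S29273007, were higher on day 6 than on day 0, beside 7.48% of 5296 rows and 11.4% of 720 UniGene-only rows, and 5 of the 10 had enough counts. The same 2 rows were higher on day 6 than on day 3, beside 2.88% of 5101 rows and 4.37% of 686 UniGene-only rows. Only Rn#S29273007 was higher on day 3 than on day 0, beside 8.54% of 5342 rows and 9.78% of 716 UniGene-only rows, with 4 of the 10 having enough counts. None of the 10 was lower by the rule in these 3 comparisons, in which 13.1, 6.74 and 7.88% of all rows with enough counts were lower. The median log2 ratio was 0.64 for day 6 over day 0 over the 9 rows with a ratio, against 0.03 over all rows and 0.09 over UniGene-only rows. For day 3 over day 0 it was 0.26 over 8 rows, against -0.01 over all rows. Comparisons that share a library are not independent of each other.

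**Figure D4:**
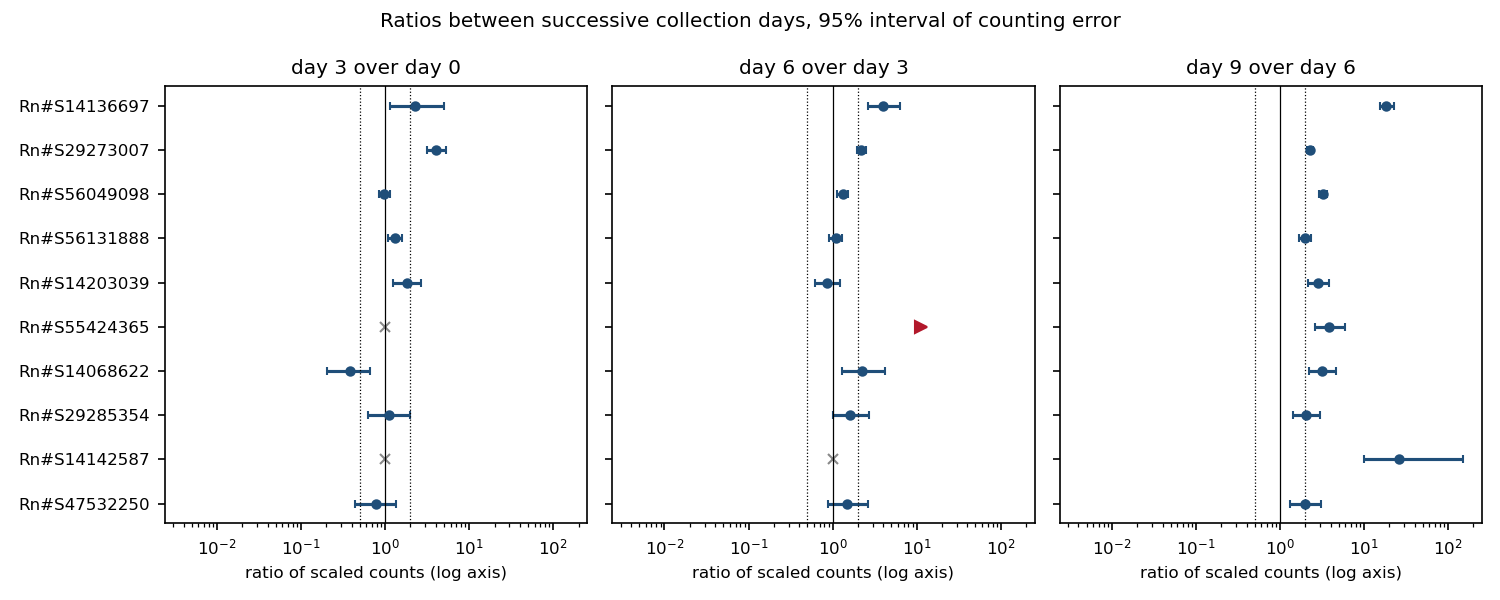
Ratio of scaled counts between successive collection days for each of the 10 rows, on log axes, with 95% intervals of counting error; dotted lines mark ratios of 0.5 and 2. A triangle marks a lower bound against a library at 0, and a cross marks a row with at most 3 counts in both libraries, for which no ratio is given. Rn#S29273007 lay above 2 in all 3 panels, and Rn#S14136697 and Rn#S14142587 had the highest ratios of day 9 to day 6, at 18.5 and 26.1.

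Named genes of injured epidermis give the setting of the day 9 library. The gene lists were chosen with earlier results of these data known, so their counts are a description and not a test. Of 14 stress keratin and alarm genes found, 10 were higher on day 9 than on day 0 and none was lower, beside 10.7% higher and 10.4% lower of all rows, and 10 met the same thresholds as the rows described here. The stress keratin gene Krt17 had a day 9 level 9.97 times (9.10 to 11.0) that of day 0, and Arg1, the arginase of activated macrophages and stressed keratinocytes, was 32.2-fold (19.0 to 65.4) above it. Cornified layer genes had 1 of 9 higher and 3 lower in the same comparison, among them Krt2, a keratin of the upper epidermis, with 195 counts on day 9 against 798 on day 0. None of 6 basal keratinocyte genes passed the rule in either direction.

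Of the marker lists for other cells, granulocyte markers summed to 24.7, 21.9, 13.9 and 316 CPM on days 0, 3, 6 and 9, with 2 of 7 higher on day 9. Those 2, S100a8 and S100a9, are also made by injured keratinocytes, and below the size rule Mmp9, a gelatinase of granulocyte granules, had 2, 5, 0 and 33 counts. The receptor gene Cxcr2 had 0, 2, 0 and 6 counts, and Csf3r, Ngp and Fcgr3a were at 0 on day 9. Of the 11 skeletal muscle markers, whose sums are given above, 4 were higher on day 9 than on day 0 and none was lower, 8 were higher than on day 6, and 1 was lower and none higher than on day 3. Sweat gland markers summed to 135, 257, 35.1 and 157 CPM, with 3 of 5 higher on day 9 than on day 6 and none in either direction against day 0. Beside these counts, 10.7% of all rows with enough counts were higher and 10.4% lower on day 9 than on day 0. Against days 3 and 6, 6.41% and 10.0% were higher, and the share that was lower was not counted. The other lists are set beside the same 10.7% higher and 10.4% lower of all rows. On day 9 against day 0, 5 of 7 fibroblast, 2 of 10 monocyte and macrophage and 2 of 6 adipocyte genes were higher, none lower. Against day 3, where 6.41% of all rows were higher, none of these lists had a gene higher. In that comparison 3 adipocyte genes and 1 monocyte and macrophage gene were lower, with no share of all rows to set beside them. Each list had its highest sum on day 3, at 32357, 505 and 386 CPM against 21459, 353 and 231 CPM on day 9. Mast cells had 1 of 6 higher and 1 lower on day 9 than on day 0. No gene of the T and B cell, Langerhans and dendritic cell or melanocyte lists reached the count minimum of the size rule. The rule could therefore call none of them in either direction. Melanocyte markers summed to 19.8, 3.39, 1.74 and 1.8 CPM on days 0, 3, 6 and 9. Over the same days T and B cell markers summed to 8.04, 3.09, 1.74 and 6.91 CPM. Langerhans and dendritic cell markers summed to 6.6, 8.32, 4.06 and 9.01 CPM. The part of any of these cells in the level of the 10 rows was not tested.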

How the data were processed

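The authors, per the file headers, assigned 21-base tags to genes or UniGene sequences and deposited, for each library, a whole-number count for each row and its tags. Tags seen once were left out. The deposited column headed TPM holds CPM values, counts per 1000000 tags seen at least 2 times, without scaling by transcript length. In the files 0 row sums and 0 tag copies departed from this reading, and scaled values did by at most 0.005 CPM. The assembly is Rnor_6.0 per the submitters' processing notes, and the aligner is not given in the sources used here. The deposited lists of sequenced tags were counted again.

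Rows were joined by identifier, and rows described as cytochrome oxidase, NADH dehydrogenase subunit, stefin or cystatin were left out. For the ratios, counts were scaled by the summed gene counts of each library and TMM factors (edgeR 4.0.16), with a prior count of 0.5. Unlike CPM, this total leaves out tags under no row. Intervals are exact 95% Clopper-Pearson intervals (scipy 1.17.1). One copy was worth 0.287 to 0.308 CPM. Medians over all rows used rows with a mean of at least 10 counts, which all 10 rows met. Tags were compared at 1 mismatch. None of the 5 protein accessions matched was found in the reference table. No count model (edgeR, DESeq2) was fitted, since there was 1 library for each day. The size rule was tested on simulated data. All 10 rows are described, each by its identifier. The rows and gene lists were chosen with earlier results of these data known. Alternatives changed the scaling, prior count, count minimum, tags used and thresholds.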

Additional observations from a re-analysis of the deposited data

Results flagged for a closer look

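Tags that stood under no row of the gene tables used here were examined with the same thresholds, since they lie outside the comparisons above. Of 1745 such tags with at least 20 CPM on day 9, 93 were at least 2 times as frequent on day 9 as in any other library, which is 5.33%, and 6 of the 93 were 1 base from a more abundant tag. Together the 93 had 7456, 6772, 10403 and 42340 CPM on days 0, 3, 6 and 9, and the day 9 excess of this sum follows from the choice. These are single tags. The 10 UniGene-only rows, with the 2 stefin-like rows left out, had 1828 CPM on day 9. The 5 with the highest day 9 level are given, and no gene was assigned to them.

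The tag CATGgtgatagtctaataaag had 13.8, 232, 1441 and 8505 CPM on days 0, 3, 6 and 9. CATGtactttctgtttttctc had 1801, 1922, 2004 and 7525 CPM, and CATGcttggctcctcccttgt had 2312, 1296, 2749 and 5535 CPM. CATGcgtctcacaaatcaagt had 1147, 524, 520.0 and 3645 CPM. CATGaaagtcctcagaggcct had 10.0, 127, 148 and 2675 CPM, with the widest gap of the 5 between day 9 and the highest other day, at 18.1 times. None of the 5 was 1 base from a more abundant tag of the day 9 library, and with 1 library for each day none of these differences was tested.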

How the results depend on the processing

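Membership depended on the thresholds. In place of 10 rows, 21 passed at 10 CPM, 5 at 40 CPM, 35 at 1.5 times and 4 at 3 times the highest other day, and 19 passed with TMM-scaled counts per 1000000 gene counts, which changes the total and the scaling together. Without the day 6 library, an alternative chosen after seeing the data, 19 passed. With at least 200 counts, 4, 4, 3, 1 and 1 rows were past the size rule for day 9 over days 0, 3 and 6 and day 6 over days 0 and 3. For day 6 over day 3 the count of 2 became 1 with the authors' value and 4 with a minimum of 10 counts or none, and with either the counts for day 6 over day 0 and day 3 over day 0 became 3, in place of 2 and 1. These counts take higher and lower rows together. For day 3 over day 0 the added rows include Rn#S14068622, which was lower, with 18 counts against 48 and a ratio of 0.38 (0.20 to 0.65). No median changed sign, and the other counts were within 1.5 times. Of 224 recomputed ratios of single rows, 219 kept their side of the size rule and none changed sign. Rn#S56131888 passed against day 6 with DESeq2 size factors (log2 ratio 1.00), Rn#S29285354 did not with a prior count of 5 (0.96), and Rn#S14142587 did not pass against any day through its most abundant tag alone, which has 38 copies on day 9 (3.49 against day 6, in place of 4.70). No paired analysis was possible because each day has 1 library. Depth limits the rows at 0, since 3 counts correspond to 0.861 to 0.924 CPM.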
